A study of Macaca mulatta and Mus musculus and Rattus norvegicus with 12 samples.

Results

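The genes described here are 37 genes of the cellular response to low oxygen and of glycolysis. They were read in bone that the study prepared to enrich osteocytes, the cells that live embedded in bone matrix. The genes were named by symbol, and a row of the deposited tables was taken as a member when the symbol before the first comma of its description, in upper case, was on the list. Of the 37 members, 34 had a row under their own symbol in mouse, 35 in rat and 30 in rhesus macaque. The rodent rows of CA9, CA12 and, in mouse, GPI carry the names Car9, Car12 and Gpi1. In macaque, BNIP3, EGLN3, PLOD2, PFKL, PFKP and PFKFB4 stood under LOC numbers and were named through RefSeq, which left ANKRD37 as the only member absent from that table. Of the 10536 symbols that were found in all 3 species with at least 1 read in each, 31 were members, and CA9, CA12, ANKRD37, GPI, TPI1 and ENO2 fell outside them.

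Poly(A)+ RNA was compared between 2 skeletal sites, the calvaria (roof of the skull) and the tibia (shin bone). The mice were female C57BL/6 animals of 4 months (calvaria libraries M4 and M8, tibia libraries M5 and M7), each library pooled from several animals, and the rats were female Wistar animals of 6 months with 1 pooled library per site (R1 and R3), so that rat values have no replicate check. The macaque libraries came from single females (calvaria G1, G3 and T1, tibia G2, G4 and T2), whose age the labels give as 4 to 6 months and the methods of the study in years. The labels name no altered allele and no treatment, and no library is a purified cell population. Periosteum was removed at both sites, marrow was spun out of the rodent tibias, and rodent skull pieces were taken away from sutures and marrow spaces, whereas macaque pieces were sawn and no marrow step is stated for them. The labels do not name which calvaria and tibia libraries came from the same animals, and the rodents and the macaques were sequenced on different lanes, so that species and lane cannot be told apart. Reads on named genes numbered 13934813 to 16826535 per library in mouse, 12233256 to 14255423 in rat and 7951585 to 10342459 in macaque.

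Cells read oxygen through prolyl hydroxylases of the EGLN family, which mark the alpha subunits of the hypoxia-inducible factors (HIF1A, and EPAS1, also called HIF-2 alpha) for destruction while oxygen is present. When oxygen falls the alpha subunits persist and drive genes for glucose uptake, glycolysis, vessel growth, collagen hydroxylation and the removal of mitochondria. Osteocytes reside in a mineralised matrix at some distance from vessels, and low oxygen is a setting in which these genes are often studied in bone. In bulk bone, fewer cells of a type and less RNA per cell cannot be told apart.

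Levels are given as normalized CPM, counts per unit of sequencing depth over the tested genes (the usual CPM scale), after TMM scaling in mouse and macaque. A log2 fold change is calvaria over tibia, so tibia is the higher site where it is negative, and is given with its standard error (SE). In mouse and macaque a call needed a Benjamini-Hochberg adjusted p under 0.2 and a linear fold over 1.1 in edgeR's quasi-likelihood test. In rat a gene counted as past the ratio when the log2 ratio of the 2 libraries, with 1 read added to each, lay beyond 2 in either direction, and no test is possible there.

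BNIP3, a receptor on the outer mitochondrial membrane that recruits the machinery of mitophagy, and NDRG1, a cytoplasmic protein induced by hypoxia and cell stress, were chosen for their site difference in these libraries, so their values are a description and carry no test. Mouse Bnip3 (GRCm38 chr7:138890836-138909519, minus strand) stood at 23.7 and 17.5 normalized CPM in the calvaria libraries M4 and M8 and at 77.2 and 107 in the tibia libraries M5 and M7. Both tibia libraries lay above both calvaria libraries, with a log2 fold change of -2.16 (SE 0.281). Rat Bnip3 had 31 reads in calvaria and 522 in tibia, a log2 ratio of -4.16. Macaque BNIP3 stood at 97.9, 98.9 and 107 in the calvaria libraries G1, G3 and T1, which lay close together, and at 270, 300.2 and 143 in the tibia libraries G2, G4 and T2. The lowest tibia library, T2, was still above the highest calvaria library, and the log2 fold change was -1.23 (SE 0.229).

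NDRG1 was the more abundant of the pair. Per kilobase of exonic length it was the highest of all members in mouse, at 457 normalized CPM per kilobase over the 4 libraries, and in rat, at 391, and it ranked behind ENO1 and TPI1 in macaque, at 157. Mouse Ndrg1 (chr15:66929318-66969640, minus strand) stood at 348 and 361 normalized CPM in calvaria and at 1970 and 2705 in tibia, a log2 fold change of -2.72 (SE 0.251). The rat pair stood at 243 and 2319, a log2 ratio of -3.25. In macaque the calvaria libraries stood at 348, 368 and 351 and the tibia libraries at 922, 833 and 466, a log2 fold change of -1.06 (SE 0.217). As for BNIP3, the macaque calvaria libraries were nearly level and T2 was the lowest tibia library.

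**Figure D1:**
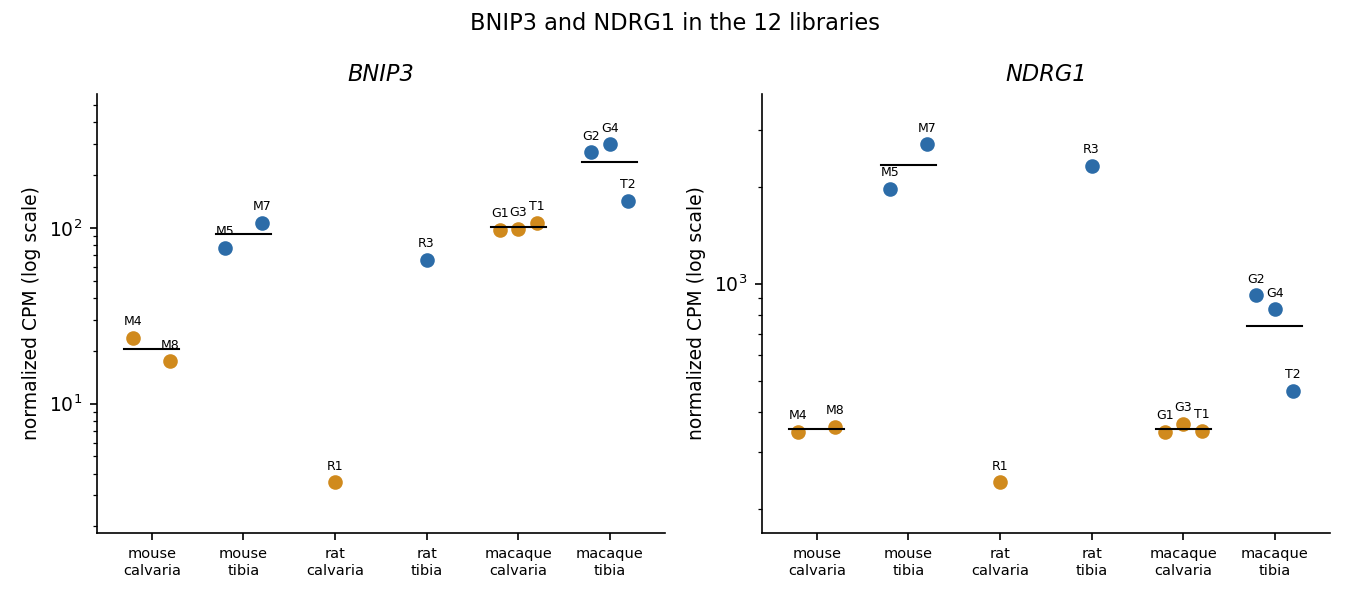
Normalized CPM (vertical axis, log scale) of BNIP3 and NDRG1 in the 12 libraries, 1 point per library with its name, calvaria in orange and tibia in blue, and the mean of a group as a bar. In each species the tibia libraries lie above the calvaria libraries, and macaque T2 lies between the calvaria libraries and G2 and G4.

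In mouse most of the other tested members had a higher fitted level in tibia, by less than BNIP3 and NDRG1. None of them passed the test in the fit over the tested genes. The separate fit over all mouse symbols called EPAS1, PLOD2 and ANKRD37, which lies outside the tested symbols, beside 2.28% of all symbols. Of the 29 tested members other than the pair, 28 had reads enough for a fold change, 21 of them had a higher fitted level in tibia and the median was -0.44, beside 0.039 over all tested genes, of which 45.9% were higher in tibia. In the fit over the tested genes none of the 29 was called in either direction. Of all tested genes, 0.294% were called higher in tibia and 0.00949% higher in calvaria. The unadjusted p was under 0.05 for 4 (EPAS1, PLOD2, BHLHE40 and EGLN1), DESeq2 called 2, beside 2.68% of all tested genes, and edgeR's exact test called 1, beside 3.25%. The mouse sites did not overlap for 14 of the 29 with tibia higher and for 1, HK2, with calvaria higher, beside 20.8% and 19.2% of all tested genes. The count of 0 rests on the spread between M4 and M8. Without M4 the test called 19 of the 29, 14 of them higher in tibia, and 47.6% of all tested genes, and without M8 it called 16, of which 15 were higher in tibia, and 24.9% of all tested genes. In both of these fits 1 calvaria library stands for the group and is assumed to vary as the tibia libraries do. Their counts are therefore not read as a result about the members.

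In rat 24 of the 28 members with a ratio had a higher level in tibia, the median log2 ratio was -0.74 (also with PFKFB4 at its bound) and the median of all tested genes was -0.20, with 63.3% of all tested genes higher in tibia. P4HA2, PFKFB4, ALDOC and DDIT4, 4 of the 29, were past the ratio with tibia higher, beside 6.39% of all tested genes, and no member was past it with calvaria higher, beside 0.769%. With TMM factors, which shift the median of all tested genes to 0.0022, the members past the ratio were ALDOC and PFKFB4. VEGFA at -1.98 and SLC2A1 at -1.94 lay just short of it.

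In macaque members were called in both directions. Of the 29, 5 were called higher in tibia (ADM, KDM3A, DDIT4, MXI1 and EGLN1), beside 12.6% of all tested genes, and 7 higher in calvaria (SLC2A1, HK2, HK1, PGAM1, BNIP3L, ENO1 and PGK1), beside 14.1%. The 5 belong to the sensing, stress and secreted groups, and 6 of the 7 to glucose entry and glycolysis, where PDK1, ALDOC and LDHA had negative differences that were not called. No test compared the roles. Without overlap between the 3 libraries of each site, 4 of the 29 were higher in tibia and 6 in calvaria, beside 14.5% and 16% of all tested genes. With library size alone in place of TMM factors the split was 7 higher in tibia and 5 in calvaria. The calls over all tested genes moved the same way, from 1331 higher in tibia and 1481 in calvaria to 1759 and 1201. ADM and SLC2A1 were called under each of the 19 alternatives run, and KDM3A, HK1 and HK2 under 18 of them, the exception being a required log2 fold change over 1.1. Leaving out G1, G3, T1, G2 or G4 brought the count from 12 to 7, 8, 7, 5 and 7, and leaving out T2 raised it to 15. The share of all tested genes called moved the same way. It went from 26.7% to 21.6%, 19%, 19.8%, 16.4% and 19.3%, and to 34.3% without T2. In each of these fits ADM, KDM3A, SLC2A1, HK1 and HK2 were among the members called. The other 7 lost the call without single libraries: ENO1 without G3, T1 or G2, BNIP3L and EGLN1 without G1, T1, G2 or G4, PGAM1 without G3, T1, G2 or G4, MXI1 without G1, G3, G2 or G4, DDIT4 when any library but T2 was left out, and PGK1 when any but G4 was.

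**Figure D2:**
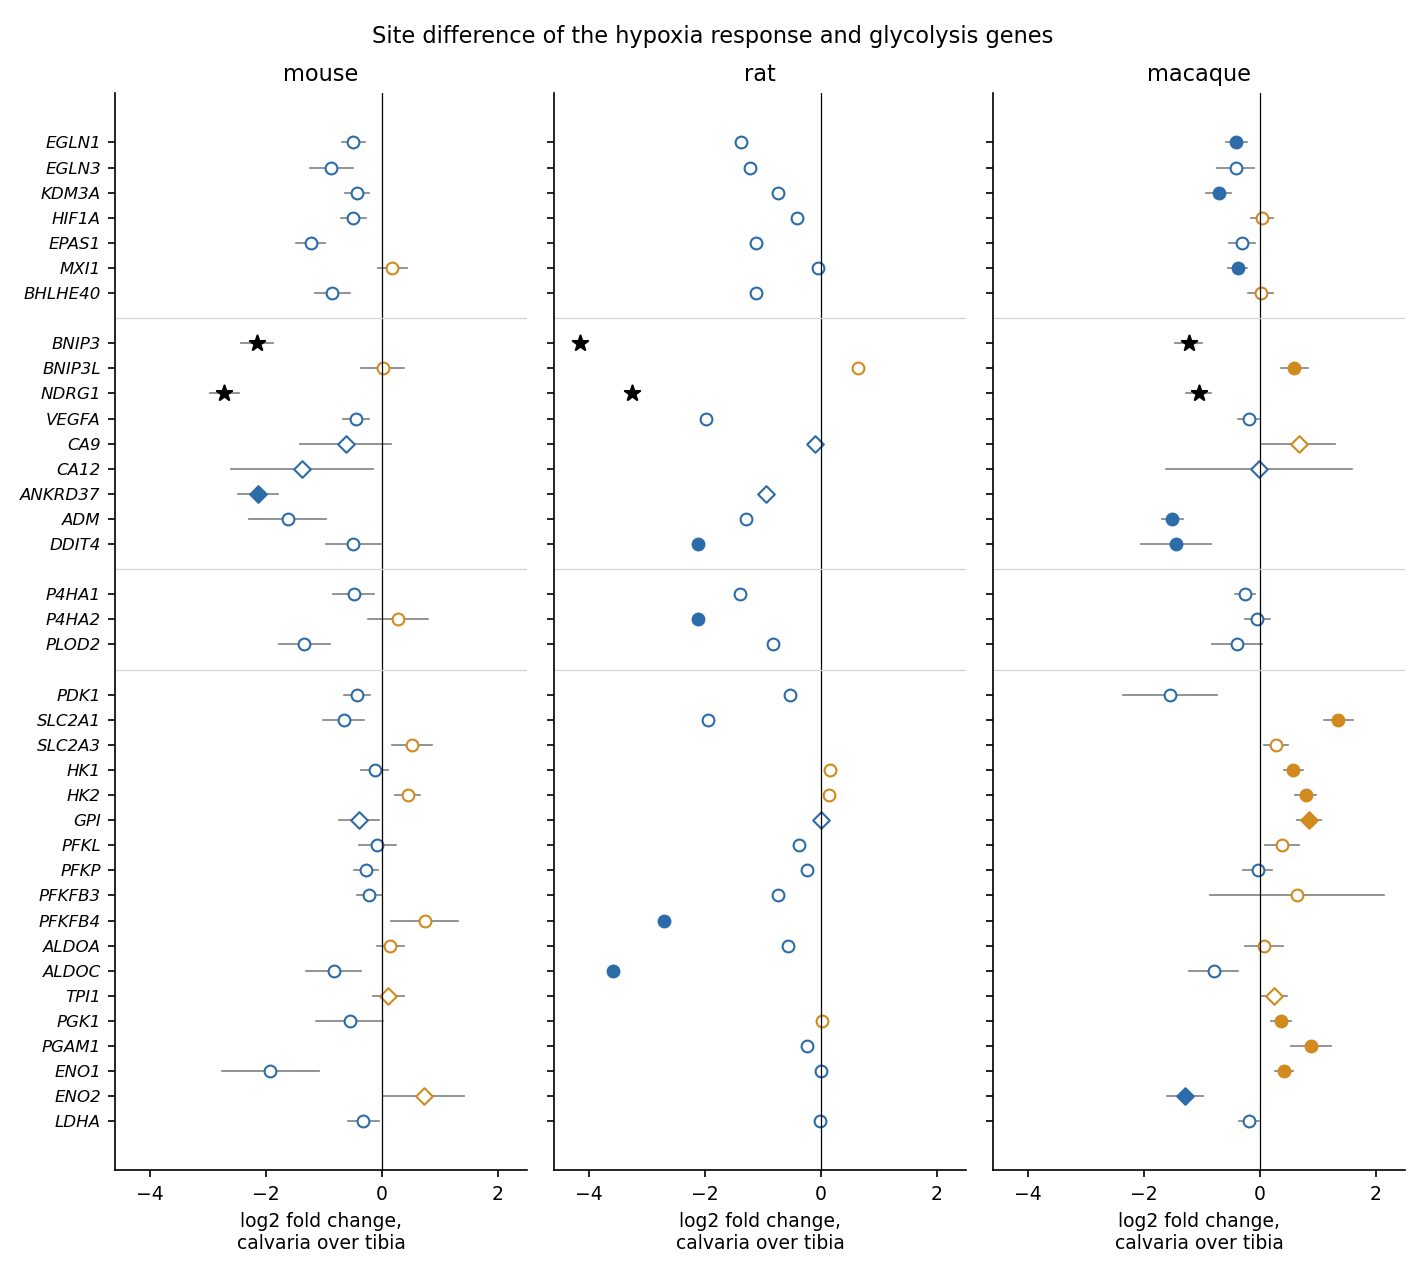
Log2 fold change, calvaria over tibia, of each member with a value in mouse, rat and macaque, grouped by role from top to bottom (sensing and transcription, mitophagy, stress and secreted responses, collagen hydroxylation, glucose entry and glycolysis), with grey bars of 1 SE in mouse and macaque. Filled symbols passed the call in mouse or macaque or lay past the ratio in rat, diamonds come from the fit over all symbols of a species, and stars mark BNIP3 and NDRG1, which carry no test. In macaque the called members of the upper groups lie left of 0 except BNIP3L, and the called members of the lowest group lie right of 0 except ENO2.

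Of the 7 oxygen sensors and transcription factors, 0 were called higher in calvaria, beside 14.1% of all tested genes in macaque and 0.00949% in mouse. In macaque 3 of the 7 were called higher in tibia, beside 12.6%. HIF1A itself stood at 130 ± 26.2 normalized CPM in macaque calvaria and 127 ± 18.1 in tibia (SD, n = 3 each), a log2 fold change of 0.032 (SE 0.189) whose sign turned with library size alone, and in mouse at 78.0 ± 9.72 and 110 ± 17.3 (SD, n = 2 each). EPAS1 had the smallest p of the 29 in mouse, with 79.9 and 54.3 normalized CPM in M4 and M8 and 157 in both M5 and M7. The mouse difference of -1.23 (SE 0.25) had an adjusted p of 0.385 in edgeR's quasi-likelihood test and of 0.0131 in DESeq2. In macaque EPAS1 stood at 346 ± 89.7 in calvaria and 428 ± 123 in tibia, and was called with the assumed pairs of libraries as a block (adjusted p = 0.173, edgeR), with the letter of the label as a batch (0.166) and without T2 (0.0494). In rat it had 3 and 7 reads, too few for a level.

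The prolyl hydroxylases EGLN1, the main oxygen sensor, and EGLN3, itself a target of the factors, had negative differences in all 3 species. Macaque EGLN1 stood at 117, 134 and 109 normalized CPM in calvaria and 185, 165 and 129 in tibia, so that T2 overlapped the calvaria libraries, and the log2 fold change was -0.41 (SE 0.178, adjusted p = 0.16, edgeR). It lost the call with a correction for exonic length (adjusted p = 0.354). Mouse Egln1 differed by -0.49 (SE 0.193) and the rat pair by -1.38. EGLN3 differed by -0.87 in mouse, -1.23 in rat and -0.42 in macaque.

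KDM3A, a histone demethylase that the factors induce, stood in macaque at 47.3, 38.6 and 36.0 in calvaria and 72.9, 78.4 and 48.9 in tibia, without overlap. Its log2 fold change was -0.71 (SE 0.222, adjusted p = 0.0472, edgeR), and it was -0.44 in mouse and -0.74 in rat. MXI1, a repressor of MYC targets, stood in macaque at 179, 168 and 212 in calvaria and 251, 269 and 209 in tibia, and the T1 and T2 libraries were level. The difference of -0.38 (SE 0.167, adjusted p = 0.158, edgeR) lost the call with the length correction and over all symbols of the species. BHLHE40, a transcriptional repressor of the clock and hypoxia circuits, differed by -0.86 in mouse, where the groups did not overlap, and by 0.014 in macaque, a value that turned sign with library size alone.

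In the group of mitophagy, stress and secreted responses, ADM had the smallest p of the members tested in macaque. ADM encodes adrenomedullin, a vasodilator peptide. The calvaria libraries stood at 58.2, 56.3 and 52.2 normalized CPM and the tibia libraries at 143, 191 and 142, without overlap, and the log2 fold change was -1.51 (SE 0.181, adjusted p = 6.29e-05, edgeR). Mouse Adm (chr7:110627661-110629820, plus strand) had 90 and 18 reads in M4 and M8 and 186 and 174 in M5 and M7, a difference of -1.63 with an SE of 0.662, and the rat pair differed by -1.29. The tibia was higher in each species, and the mouse calvaria libraries lay far apart.

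DDIT4, a stress protein that restrains mTORC1, differed by -1.46 (SE 0.604, adjusted p = 0.137, edgeR) in macaque, but the libraries fell by the letter of their label. The G libraries stood at 27.9 and 42.1 in calvaria and 97.8 and 101 in tibia, and the T libraries at 7.06 and 12.3, below all G libraries at either site. Without T2 the adjusted p of DDIT4 was 0.00055, it was 0.22 to 0.34 when 1 of the other 5 libraries was left out, and DESeq2 gave 0.366. In rat DDIT4 had 88 reads in calvaria and 352 in tibia, and in mouse the groups overlapped.

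BNIP3L, the closest relative of BNIP3 and a mitophagy receptor that red cell precursors use to clear their mitochondria, did not follow BNIP3. In macaque the calvaria libraries stood at 164, 83.9 and 159 and the tibia libraries at 94.0, 74.75 and 100.4, and G3 lay within the tibia range. The difference of 0.60 (SE 0.232, adjusted p = 0.111, edgeR) was called, and lost the call with the length correction (adjusted p = 0.35). In rat BNIP3L had 18689 reads in calvaria and 10957 in tibia, and in mouse the groups overlapped, with a difference of 0.012 (SE 0.367). The erythroid list, read as a sum over its genes, stood at 2880 to 3830 in macaque calvaria and at 540 to 882 in tibia, and its part in the BNIP3L values was not tested.

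VEGFA, the main angiogenic ligand of the factors, differed by -0.45 in mouse without overlap between the sites, by -1.98 in rat and by -0.19 (SE 0.185) in macaque, where the groups overlapped. ANKRD37, an ankyrin repeat protein induced by hypoxia, was absent from the macaque table and was fitted in mouse with all symbols of the species. Its levels were 9.41 and 10.4 in M4 and M8 and 32.03 and 55.3 in M5 and M7, a difference of -2.14 (SE 0.342, adjusted p = 0.0061, edgeR), close to that of BNIP3, and it is named after its values were seen. The rat pair had 61 and 102 reads. CA9 and CA12, carbonic anhydrases of the cell surface, had at most 37 reads in any library, and neither was called in mouse or macaque.

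The 3 members of collagen hydroxylation were P4HA1 and P4HA2 (prolyl 4-hydroxylase subunits) and PLOD2 (a lysyl hydroxylase). They included no called member in mouse or macaque, beside 0.304% and 26.7% of all tested genes. In rat they were all higher in tibia, P4HA2 with 174 and 699 reads, a log2 ratio of -2.13 (-1.93 with TMM factors), P4HA1 at -1.39 and PLOD2 at -0.82. Mouse Plod2 stood at 86.1 and 34.3 in M4 and M8 and at 160 and 145 in M5 and M7, a difference of -1.34 (SE 0.442, adjusted p = 0.616, edgeR). Macaque PLOD2 followed the letter more than the site. The G libraries stood at 59.2 and 41.5 in calvaria and 88.4 and 72.5 in tibia, and the T libraries at 171 and 196. With the assumed pairs as a block its difference was -0.52 and was called (adjusted p = 0.019, edgeR), against -0.40 without the block (adjusted p = 0.609), and without T2 its sign turned to 0.17.

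SLC2A1, the glucose transporter GLUT1, had the smallest p of the glucose members in macaque and lay on the other side there than in the rodents. The macaque calvaria libraries stood at 68.4, 80.5 and 130 normalized CPM and the tibia libraries at 41.9, 39.3 and 28.2, without overlap, a log2 fold change of 1.35 (SE 0.251, adjusted p = 0.0023, edgeR). Mouse Slc2a1 (chr4:119108711-119137983, plus strand) had 99 and 143 reads in M4 and M8 and 265 and 179 in M5 and M7, also without overlap but with tibia higher, and differed by -0.66 (SE 0.351, adjusted p = 0.723). The rat pair had 49 and 175 reads, tibia higher. SLC2A3, the transporter GLUT3, was not called in mouse or macaque and had 2 and 0 reads in rat.

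The hexokinases, which trap glucose in the cell by phosphorylation, were called in macaque. HK2 stood at 92.3, 106 and 108 in calvaria and 65.5, 51.9 and 59.7 in tibia, a difference of 0.79 (SE 0.181, adjusted p = 0.00917, edgeR). HK1 stood at 125, 130 and 109 in calvaria and 85.6, 78.7 and 80.3 in tibia, a difference of 0.57 (SE 0.166, adjusted p = 0.0341, edgeR). Neither gene overlapped between the sites. In mouse HK2 had a difference of 0.45 (adjusted p = 0.719, edgeR) and was the only tested member whose calvaria libraries both lay above the tibia libraries, and HK1 differed by -0.13. In rat HK1 and HK2 had ratios of 0.16 and 0.13.

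The phosphofructokinases PFKL and PFKP, which commit sugar to glycolysis, overlapped between the sites in macaque, and neither was called in mouse. PFKFB3 and PFKFB4, which make the activator of phosphofructokinase, had at most 8 reads in any macaque library. In rat PFKFB4 had 0 reads in calvaria and 5 in tibia, so it was past the ratio through the added read, and it was at least 1.82-fold higher in tibia when 3 reads are allowed for a count of 0. Rat ALDOC, an aldolase isoform, had 30 and 342 reads, a log2 ratio of -3.60 that lay between those of BNIP3 and NDRG1. Macaque ALDOC stood at 20.2, 25.4 and 11.8 in calvaria and 45.2, 43.6 and 10.8 in tibia, so that the T libraries were level. Its difference of -0.79 (adjusted p = 0.256) was called with the assumed pairs as a block, at -0.65 (adjusted p = 0.0471, edgeR). ALDOA, the main aldolase, overlapped between the sites in mouse and macaque, but had 54 to 91 reads per macaque library against 7098 to 8065 in mouse.

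Of the enzymes of the later steps, ENO1, PGK1 and PGAM1 were called higher in macaque calvaria and LDHA was not called. ENO1, the ubiquitous enolase, was the most abundant member per kilobase there, at 616, and stood at 1217, 1421 and 1490 normalized CPM in calvaria and 960, 1090 and 1046 in tibia, a difference of 0.42 (SE 0.163, adjusted p = 0.115, edgeR). PGK1, phosphoglycerate kinase, stood at 464, 379 and 404 in calvaria and 329, 368 and 270 in tibia, a difference of 0.37 (SE 0.168, adjusted p = 0.182, edgeR). PGAM1, phosphoglycerate mutase, stood at 14.6, 22.3 and 19.0 in calvaria and 10.1, 5.88 and 14.2 in tibia, a difference of 0.88 (SE 0.344, adjusted p = 0.111, edgeR), with a gap of less than 1 normalized CPM between G1 and T2. The groups of these 3 genes did not overlap. Macaque PGAM1 is a sum of 5 rows. The largest of them, with 53.3% of the reads, had a mean of 9.52 in calvaria and 5.59 in tibia. ENO1 and PGK1 lost the call with library size alone (adjusted p = 0.245 and 0.377, edgeR), and PGK1 was called under 9 of its 19 alternatives. In the fit over all symbols of the species GPI, which isomerises glucose phosphate, was also higher in macaque calvaria, by 0.85 (SE 0.209, adjusted p = 0.00468, edgeR). ENO2, the neuronal enolase, was lower there, by -1.30 (SE 0.312, adjusted p = 0.00367, edgeR). Both were fitted outside the 10536 tested symbols and named after their values were seen. LDHA, which turns pyruvate to lactate, and TPI1 overlapped between the sites in macaque. The largest of the 3 rows summed for macaque LDHA held 74.3% of its reads.

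**Figure D3:**
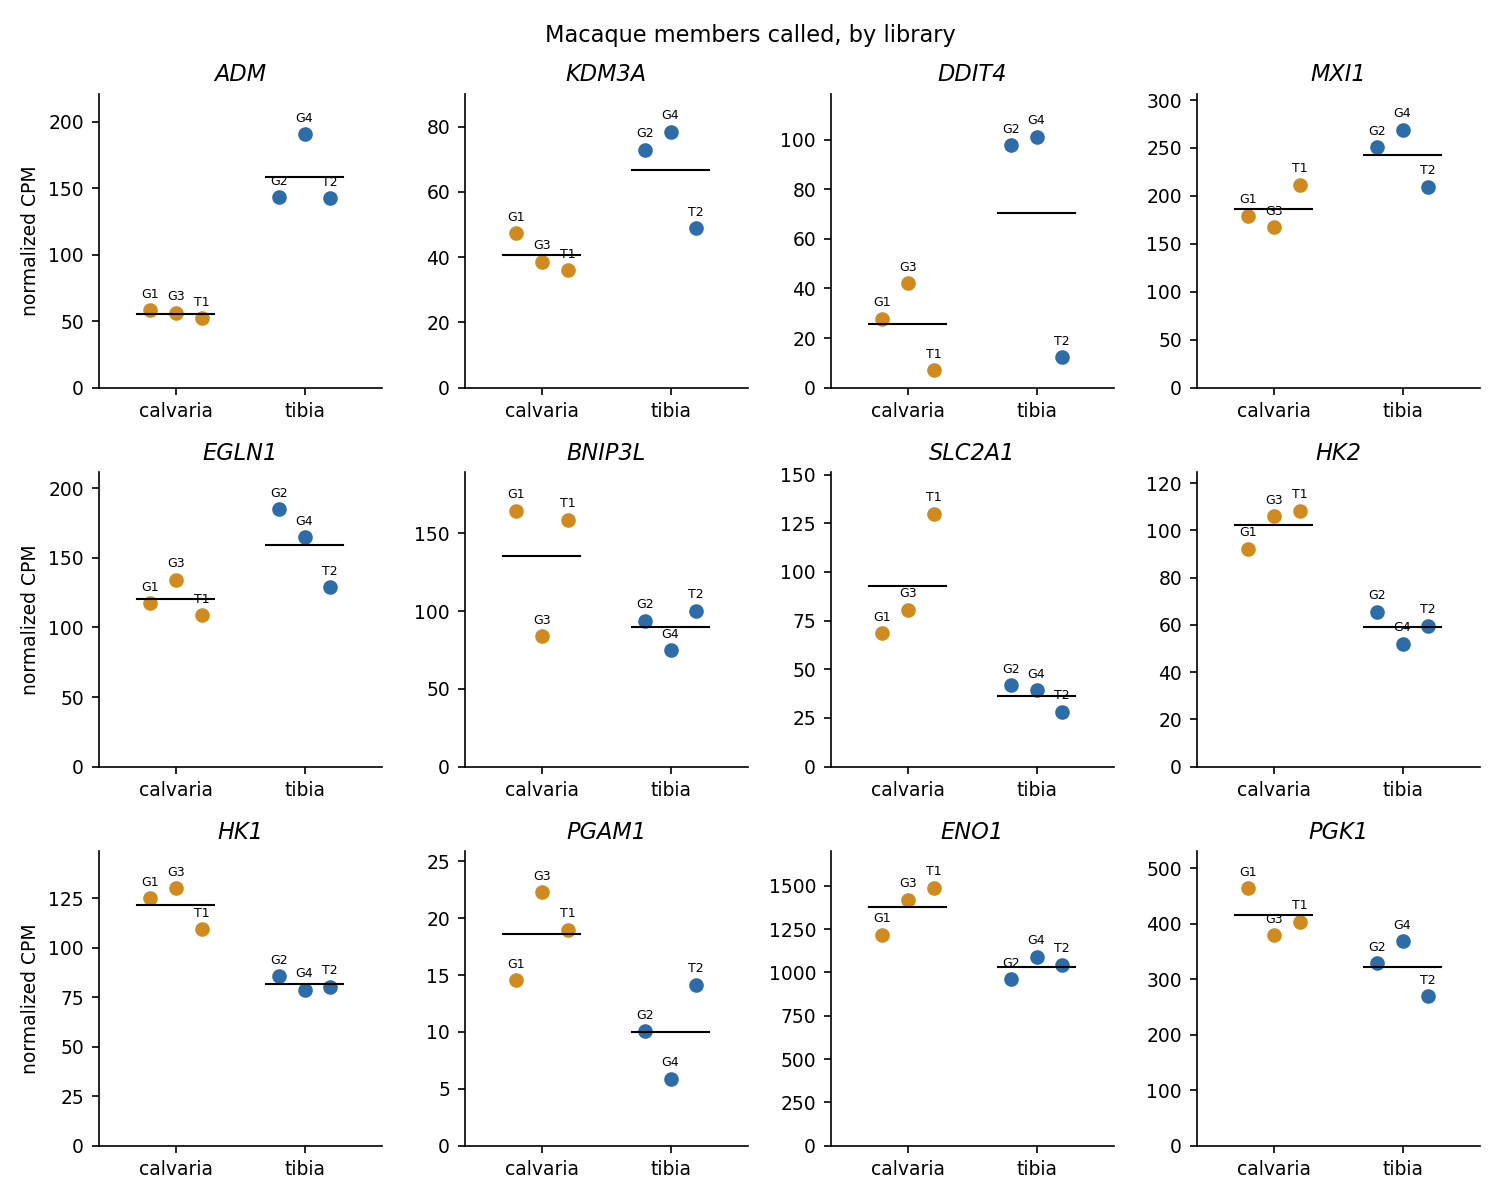
Normalized CPM (vertical axis, from 0) of the 12 called macaque members, 1 point per library with its name, calvaria in orange and tibia in blue, and the site mean as a bar. ADM, SLC2A1, HK2 and HK1 form separate groups, while in DDIT4 both T libraries lie below all G libraries and in BNIP3L the calvaria library G3 lies within the tibia range.

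PDK1, a kinase that inhibits pyruvate dehydrogenase, had 2 to 6 reads in macaque calvaria and 11 to 15 in tibia, without overlap. Its difference of -1.55 had an SE of 0.807 (adjusted p = 0.245, edgeR). In mouse PDK1 differed by -0.43 without overlap.

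Several glycolytic genes had few reads in mouse. Pgam1 had 1 to 3 reads per library and therefore no fold change, Eno1 had 3 to 28 and Pgk1 40 to 178, although rat Pgam1 had 2287 and 2488 reads and macaque ENO1 5823 to 8231. Stretches of 125 bases, the read length, were compared between each gene's GENCODE vM21 transcripts and those of all other genes. Of these stretches 66.5% in Pgk1, 38.8% in Pgam1 and 35.4% in Eno1 were identical in another annotated gene, against 13.4% in Bnip3l, 3.29% in Bnip3, 1.26% in Gpi1, 0.496% in Hif1a and none in the other members, Ndrg1 and Slc2a1 among them. All 638 stretches of the Pgam1 coding sequence (762 bases) were found in Pgam1-ps2, a processed pseudogene at GRCm38 chr7:27469771-27470535, whose own row held 232, 108, 69 and 76 reads in M4, M8, M5 and M7. The first 125 coding bases of Pgam1, in which the start codon is in capitals, are shown because a read of this sequence has no single place among the annotated transcripts.
Pgam1, coding bases 1 to 125: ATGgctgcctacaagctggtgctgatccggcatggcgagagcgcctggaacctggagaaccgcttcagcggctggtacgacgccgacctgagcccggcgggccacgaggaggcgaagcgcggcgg
The part of such copies in the low mouse counts was not tested, and no direction is drawn from mouse Pgam1.

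The difference between the species was tested for the 29 members in a fit over the 10 mouse and macaque libraries. It was called for 2 of them, SLC2A1 and ENO1, where 5% of all tested genes were called. For SLC2A1 the mouse log2 fold change minus that of macaque was -2.03 (SE 0.474, adjusted p = 0.0779, edgeR), with tibia higher in both mouse tibia libraries and calvaria higher in all 3 macaque calvaria libraries. For ENO1 the difference was -2.38 (SE 0.454, adjusted p = 0.0494, edgeR), but it rests on the 3 to 28 mouse reads given above. The difference was not called for ADM, -0.13 (SE 0.532, adjusted p = 0.934, edgeR), for EPAS1, -0.93 (SE 0.403, adjusted p = 0.333, edgeR), or for HK1, -0.72 (SE 0.269, adjusted p = 0.269, edgeR).

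By their medians, the sensing, stress and collagen groups lay on the side of BNIP3 and NDRG1 in each species. The glucose group did so in mouse, and not in macaque. In mouse 0 of its 15 tested members had an unadjusted p under 0.05 (edgeR), and its median includes ENO1 and PGK1 at few reads. Its rat median of -0.31 was also negative, but lay near that of all tested genes, -0.20, which TMM factors shift to 0.0022. The 23 tested other hypoxia-induced genes had medians of 0.044 in mouse, -0.215 in rat and 0.104 in macaque, beside 0.039, -0.20 and 0.0096 over all tested genes. The 14 tested other genes of glycolysis and lactate transport had medians of 0.217, 0.0586 and 0.695. Beside the -2.16 of BNIP3 and the -2.72 of NDRG1, the other tested members of mouse reached -1.93 (ENO1, at few reads) and -1.63 (ADM). In rat ALDOC reached -3.60 and lay between BNIP3 and NDRG1, and DDIT4, P4HA2, VEGFA and SLC2A1 lay between -1.94 and -2.13. In macaque ADM and DDIT4 exceeded both, as did PDK1 at few reads, while SLC2A1, HK2 and HK1 lay on the other side. By role, the macaque medians were -0.38 for the 7 sensing and transcription members, -0.83 for the 4 tested mitophagy, stress and secreted members other than the pair, -0.26 for the 3 of collagen hydroxylation and 0.38 for the 14 of glucose entry and glycolysis with a fold change. The mouse medians of the same groups were -0.50, -0.47, -0.49 and -0.25, and the rat medians -1.13, -1.64, -1.39 and -0.31. The rat sensing median of -1.13 was the value of EPAS1, at 3 and 7 reads, and of BHLHE40, at 13 and 27. The medians of all tested genes were 0.0096 in macaque, 0.039 in mouse and -0.20 in rat.

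The tibia library T2 stood apart for the members that were higher in macaque tibia. Of the 17 such members, BNIP3 and NDRG1 included, 13 had their lowest tibia level in T2 (76.5%), beside 44.9% of all 5198 tested genes with a higher mean level in tibia. Within the G libraries BNIP3 differed by -1.53 and NDRG1 by -1.29, and between T1 and T2 by -0.42 and -0.41. The same split was seen for KDM3A (-0.82 and -0.44) and MXI1 (-0.58 and 0.017), and not for ADM (-1.54 and -1.45). SLC2A1 went the other way, with 0.88 within the G libraries and 2.20 between T1 and T2. Osteocyte markers had the same order, with a summed level of 26600 in G2, 27000 in G4 and 12200 in T2 against 7930 to 9070 in calvaria, and neutrophil markers the opposite one in tibia, with 10900, 10700 and 21400. T2 was also the highest tibia library for the osteoblast list (90100 against 26000 in G2 and 25400 in G4, with 65800 in T1 and 36800 to 37400 in the other calvaria libraries), the osteoclast list (2370 against 994 and 639) and the adipocyte list (2820 against 1280 and 1190). Their part in the T2 values was not tested.

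Other genes of the same pathways were read from lists chosen by role. Of the 14 tested other genes of glycolysis and lactate transport, 7 were called higher in macaque calvaria and 1, LDHB (-0.57), higher in tibia, beside 14.1% and 12.6% of all tested genes. The smallest p-values in calvaria were those of PKLR, the red cell and liver pyruvate kinase (2.30, SE 0.247), SLC16A1, the lactate transporter MCT1 (1.73, SE 0.211), and HK3, a hexokinase of leukocytes (2.16, SE 0.393). In mouse 0 of these 14 were called, beside 0.304% of all tested genes. In rat 1, ENO3, the muscle enolase, was past the ratio with tibia higher (-2.61), and 6 of the 7 tested skeletal muscle markers were past it in the same direction, with a summed level of 14.1 in R1 and 1500 in R3, whose part in the ENO3 value was not tested.

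Of 23 tested other hypoxia-induced genes, 3 were called higher in macaque tibia, RORA (-0.90), INSIG2 (-0.80) and PLOD1 (-0.41), and 5 higher in calvaria, among them HMOX1, heme oxygenase (2.10, SE 0.314), and ANGPTL4 (1.44, SE 0.274), beside 12.6% and 14.1% of all tested genes. In mouse 0 of the 23 were called, beside 0.304% of all tested genes. Of 6 tested genes of the pyruvate carrier, pyruvate dehydrogenase and its regulators, 3 were called higher in macaque tibia, PDK3 (-1.03), PDP1 (-0.55) and PDHB (-0.38). The carrier MPC1 (0.59) was the 1 gene called higher in calvaria, beside the same shares of all tested genes. Of 7 tested regulators of the factors, 0 were called in mouse or macaque, beside 0.304% and 26.7% of all tested genes. Of 6 tested relatives of the pair (other mitophagy receptors and NDRG genes), 0 were called in mouse or macaque, beside the same shares. In rat 1 of them, NDRG2, was past the ratio with tibia higher (-2.47), beside 6.39% of all tested genes.

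Markers of other cells moved with the sites in ways that stand beside these results. In macaque all 6 tested neutrophil markers, all 5 erythroid and all 5 megakaryocyte markers were called higher in calvaria, the same side as the glucose genes. So were 4 of 5 adipocyte, 3 of 4 B cell and 3 of 5 osteoclast markers and 4 of 5 proliferation genes. The same held for 5 of 7 immediate early and heat shock genes, listed as stress at dissection, a cause that was not tested. The summed neutrophil level of macaque was 55600 to 90800 in calvaria and 10700 to 21400 in tibia, and that of the stress genes 5760 to 7570 and 1670 to 2830. The rodents also had high neutrophil sums, 135000 to 177000 in calvaria and 81700 to 93100 in tibia of mouse, and 131000 and 66000 in rat. Their erythroid sums were 1490 to 4120 and 1980 to 2180 in mouse, and 15400 and 7320 in rat. HK3 and PKLR are known from blood cells, and the part of blood cells in the calvaria side of HK1, HK2, SLC2A1 and ENO1 was not tested. Osteocyte markers had reads in every library, although DKK1 and FGF23, 2 of the 8 on the list, are listed at 0 in the rat table, as is TPI1, an enzyme that every cell uses, so these zeros are not read as absence. Their summed level was higher in tibia, the side of BNIP3 and NDRG1, with 1820 to 3110 in calvaria and 11700 to 15800 in tibia of mouse, 895 and 11200 in rat and 7930 to 9070 and 12200 to 27000 in macaque, while 2 of 6 tested osteocyte markers were called higher in tibia and 1 in calvaria in macaque. In mouse, chondrocyte markers summed to 27.5 to 129 in calvaria and 850 to 1020 in tibia and adipocyte markers to 288 to 761 and 1510 to 1950. Macaque adipocyte markers had the opposite order, with 3450 to 4690 in calvaria and 1190 to 2820 in tibia. Endothelial markers summed to 185 to 196 in calvaria and 267 to 281 in tibia of mouse, and to 344 and 612 in rat. In macaque their sums overlapped, with 636 to 828 in calvaria and 769 to 864 in tibia. The part of these cells in the members' values was not tested.

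**Figure D4:**
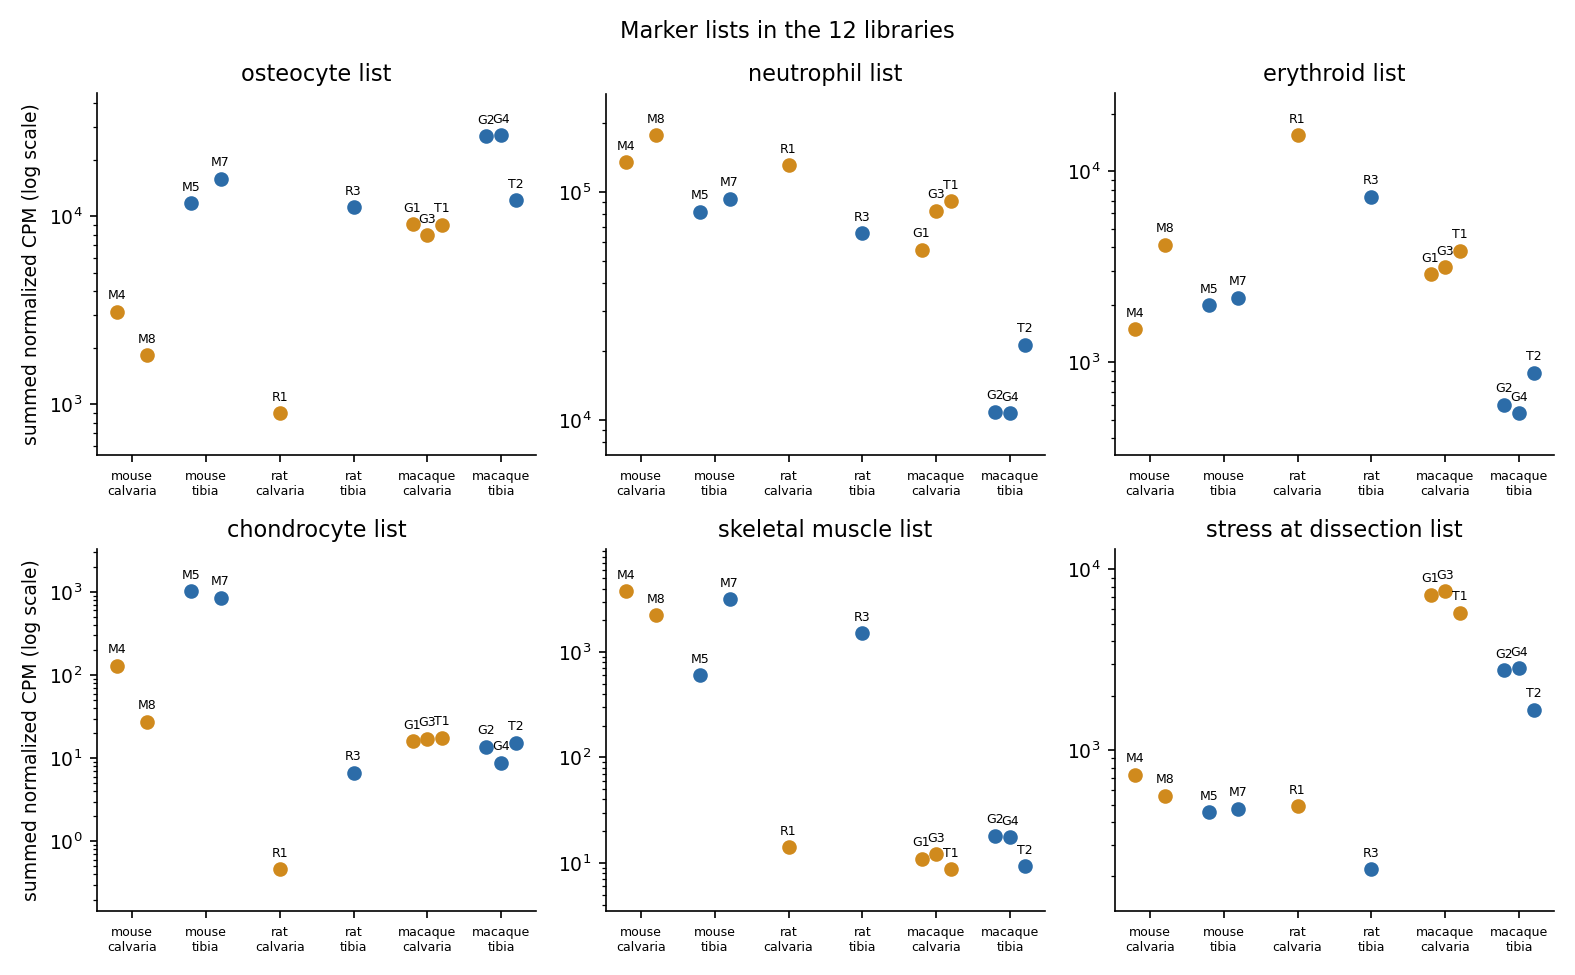
Summed normalized CPM (vertical axis, log scale) of the marker lists of 6 kinds in the 12 libraries, 1 point per library with its name, calvaria in orange and tibia in blue. The osteocyte list is higher in tibia in each species, the neutrophil list is higher in calvaria, and the skeletal muscle list is high in rat tibia and in all mouse libraries.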

How the data were processed

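Raw counts per merged-exon gene were deposited by the authors for each of 12 libraries (125-base reads; mm10, rn6 and MacaM). The methods name HISAT2, the submitters' processing notes BWA 0.7.10-r789, HTSeq and edgeR 3.16.5, and counting was stated to ignore strand, so overlapping antisense genes cannot be told apart. The deposited CPM signal was not used, and the deposited covered length in bases served for levels per kilobase. Rows with the same symbol were summed, and rows that name no gene, 0.00261% to 0.0663% of reads, were left out. All 10536 symbols shared by the 3 species with a read in each were fitted with edgeR 4.0.16 (R 4.3.3; TMM, quasi-likelihood test, Benjamini-Hochberg) separately in mouse and macaque, and the species difference in 1 fit of both. DESeq2 1.42.0, edgeR's exact test, other scalings, filters, thresholds and leaving out each library were alternatives. Rat libraries had no test. The fits were tested on simulated data.

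Members and lists were chosen with earlier results of these data known. Values are given per library for BNIP3, NDRG1, up to 8 called members per direction and the rat members past the ratio, with up to 3 called genes per further list and direction (1 such gene is not reported here), and others were named for their role or after their values were seen. P-values measure only the spread between these samples. The study states that sites were paired but the labels name no pairs. Assumed pairs of neighbouring numbers (G1 with G2, G3 with G4, T1 with T2) had correlated deviations from the site means over 8129 genes (r = 0.182, 0.275 and 0.417, against -0.329 to 0.0696 for other pairs). Counting error is the only error behind the floor of 3 reads for a count of 0.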

Additional observations from a re-analysis of the deposited data

Results flagged for a closer look

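The site difference of SLC2A1 was not the same in mouse and macaque by the test of the difference itself, at -2.03 on the log2 scale (mouse minus macaque, SE 0.474, adjusted p = 0.0779, edgeR). Both mouse tibia libraries lay above both calvaria libraries, and all 3 macaque calvaria libraries above all tibia libraries. The same test passed for ENO1 at -2.38 (SE 0.454, adjusted p = 0.0494, edgeR), where mouse had 3 to 28 reads per library and macaque 5823 to 8231. Species, lane, genome and annotation cannot be told apart in either value.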

How the results depend on the processing

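Of the 29 members, the mouse count of 0 called became 2 over all symbols of the species (2.28% of all genes were called), 1 with edgeR's exact test (3.25%) and 2 with DESeq2 (2.68%), and 0 to 19 when 1 library was left out. The macaque count of 12 became 5 at a false discovery rate under 0.05 (12.6% of all genes) and 3 at a log2 fold change over 1.1 (9.84%). It became 5 to 15 when 1 library was left out (16.4% to 34.3%). The rat count of 4 became 2 with TMM factors (6.08% of all genes were past it) and 13 at a log2 ratio of 1 (23.2%). The 2 called species differences became 3 with a likelihood ratio test (12.6% of all genes). With the assumed pairs as a replicate block 15 macaque members were called (33.9% of all genes), adding ALDOC (adjusted p = 0.0471), EPAS1 (0.173) and PLOD2 (0.019, all edgeR), and with the letter of the label as a batch also 15 (34.1%). In mouse the labels name no pairs, and either way of pairing called 0 members.

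No called macaque member changed sign under the alternatives that took all libraries or left out 1. Signs turned for uncalled members, namely mouse BNIP3L with library size alone (-0.104) and with a replicate block (-0.0687 and -0.0684), macaque PFKFB3 with the replicate block (-0.256), macaque ALDOA (-0.0401), HIF1A (-0.0705) and BHLHE40 (-0.0831) with library size alone, rat PGK1 over all rat symbols (-0.0705), and rat ENO1 (0.193), LDHA (0.186) and MXI1 (0.153) with TMM factors. Macaque MXI1, which was called, stood at 0.0168 in the T libraries alone, a split added after seeing the data. The causes were not tested. Leaving out 1 mouse library gave BNIP3L -0.586 to 0.435, P4HA2 -0.748 to 0.866, SLC2A3 -0.0222 to 0.919, HK1 -0.369 to 0.0771, PFKL -0.194 to 0.0577, PFKFB4 -0.203 to 1.31, ALDOA -0.0592 to 0.403, PGK1 -1.30 to 0.08, DDIT4 -0.968 to 0.235 and MXI1 -0.134 to 0.43. Leaving out 1 macaque library gave P4HA2 -0.186 to 0.158, PLOD2 -1.25 to 0.17, PFKP -0.202 to 0.215, PFKFB3 -4.00 to 1.20, ALDOA -0.127 to 0.264, HIF1A -0.063 to 0.177 and BHLHE40 -0.201 to 0.304. Library size alone moved the median of all tested genes to -0.076 in mouse and -0.09 in macaque. At 0 to 8 reads, PFKFB3 and PFKFB4 in macaque are below what this depth can compare.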

Other observations

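Among other glycolysis genes, mouse Gapdh had 15, 13, 15 and 8 reads in M4, M8, M5 and M7, and 51.2% of its 125-base stretches were identical in another annotated gene. PKM, the pyruvate kinase of most tissues, had 2302 to 3519 reads per mouse library and 27 to 38 in rat, and TPI1 and ENO2 are listed at 0 in both rat libraries. The macaque GAPDH difference was 0.94 (SE 0.208, adjusted p = 0.00759, edgeR), on the calvaria side with HK1 and HK2. GAPDH was chosen after its values were seen.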
